A study of Mus musculus with 8 samples.

Results

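Expression of 9 transcription factor genes of the nephric duct and of tubule segments, *Pax2*, *Pax8*, *Lhx1*, *Emx2*, *Tfcp2l1*, *Pou3f3*, *Irx1*, *Irx3* and *Foxi1*, was followed in mouse tubuloids by RNA-Seq. The genes were taken by name, as 9 of the 24063 gene symbols listed, and all 9 were among the 16557 genes that passed the filter on low counts. Fragments of kidney tubules plated in Matrigel give rise to these epithelial structures. Cultures of the GDNF group (n = 4, numbers 6, 12, 17 and 22) were given glial-derived neurotrophic factor for 24 h after plating, and control cultures (n = 4, numbers 3, 7, 14 and 21) were not. All 8 cultures were otherwise kept in the same medium with hepatocyte, epidermal and fibroblast growth factors and were collected on culture day 7. The kidneys are labelled as postnatal day 7 to 10, while the methods of the study give a younger range. Both groups had the genotype Pkd2fl/fl Pax8rtTA TetOCre mTmG, that is, floxed *Pkd2* alleles, a doxycycline-dependent transactivator, the Cre recombinase it switches on, and a membrane reporter that turns from red to green. The transactivator is driven by the promoter of *Pax8*, one of the 9 genes, and no doxycycline is named for these cultures. The study calls the cultures independent populations, but the labels do not tie them to animals, so p-values measure only the spread between these cultures.

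The collecting system of the kidney grows from the nephric duct, an epithelial tube whose formation requires *Pax2*, *Pax8* and *Lhx1*. GDNF, made by the neighbouring mesenchyme, binds the Ret and Gfra1 receptors on the duct and draws out the ureteric bud, whose epithelium also requires *Emx2*. Later, factors such as *Pou3f3* and the Iroquois genes *Irx1* and *Irx3* act in the loop of Henle and neighbouring nephron segments, and *Tfcp2l1* and *Foxi1* act in the principal and intercalated cells of the collecting duct. The comparison asks whether the levels of these factors at day 7 differed after an early GDNF pulse.

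Total counts over transcripts ranged from 72991721 to 97490625 per culture. Levels are given as TPM, the transcript abundance corrected for length and scaled to a fixed total per culture, and differences also as CPM, counts scaled to library size with TMM factors, which correct for the composition of a library. The scales differ in their midpoint, because TPM was higher in the GDNF cultures for most genes, with a median log2 change of 0.39 over 13569 genes with at least 1 TPM, whereas the median log2 fold change in edgeR was 0.033. The share of counts in the shorter transcripts, those up to a median of 2674 bp, was 55.5 to 67.1% in the control cultures and 49.0 to 54.8% in the GDNF cultures, without overlap. *Xist* exceeded the sum of 4 Y-linked genes in controls 3 and 7 and in GDNF cultures 6 and 12, and the reverse held in the other 4 cultures, so that both kinds were equally frequent in each group.

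All 4 early duct factors and most segment factors were expressed in every culture, whereas *Irx1* and *Foxi1* were close to the limit of detection. By mean TPM over the 8 cultures, *Pax8* stood first with 68.8 ± 24.9 (SD, n = 8), a level above that of 93.2% of the listed genes. *Irx3* with 9.62 ± 1.49 and *Emx2* with 9.33 ± 4.06 TPM came next and were not separated, since *Irx3* was the higher of the pair in 5 of 8 cultures. *Lhx1* at 5.48 ± 3.72, *Tfcp2l1* at 5.33 ± 2.50 and *Pou3f3* at 5.26 ± 2.91 TPM had nearly equal means, and their order changed from culture to culture. *Pax2* followed with 3.33 ± 1.95 TPM and was below *Pou3f3* in 7 of 8 cultures. *Irx1* at 0.282 ± 0.162 TPM and *Foxi1* at 0.0976 ± 0.118 TPM were the lowest. *Pax8* was above *Irx3*, *Emx2* above *Lhx1* and *Pax2* above *Irx1* in each of the 8 cultures. The plot of TPM by culture shows these levels together with the spread within each group.

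**Figure D1:**
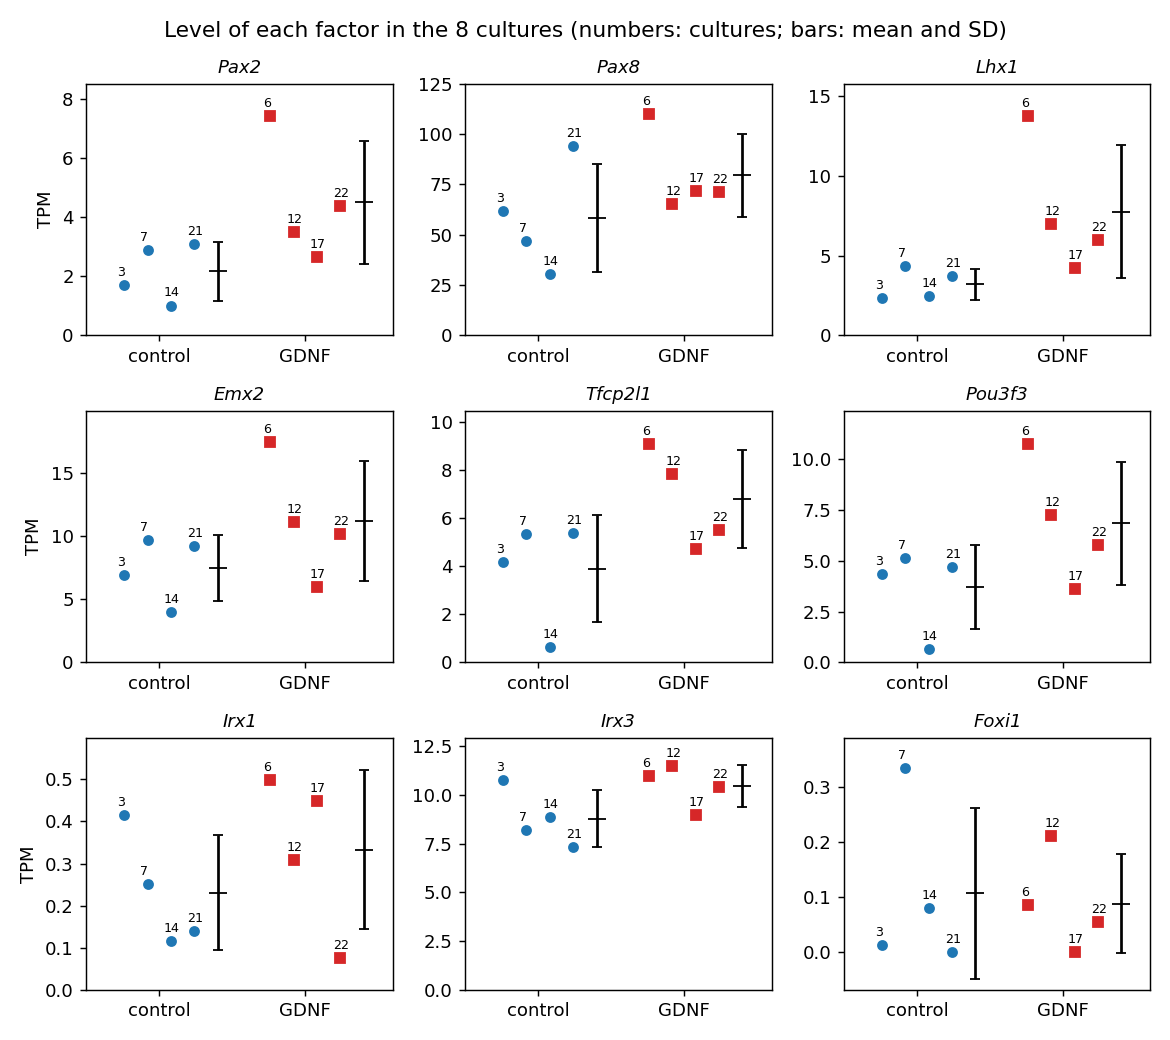
TPM of each of the 9 genes (vertical axes, linear, different scales) in the control cultures (blue circles) and GDNF cultures (red squares), numbered by culture, with the mean and SD of each group in black. The groups overlap for every gene, GDNF culture 6 is the highest for 7 genes (17.7% of all genes tested), and control culture 14 is the lowest for 5 (15.7% of all genes tested).

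*Lhx1*, a LIM homeobox gene needed for the nephric duct and later for the renal vesicle, had the largest log2 fold change of the 9 genes in edgeR, although in limma-voom its value of 0.53 was below those of *Tfcp2l1* (0.61) and *Pou3f3* (0.59). Its level was 2.31, 4.35, 2.45 and 3.70 TPM in control cultures 3, 7, 14 and 21 and 13.8, 7.01, 4.21 and 6.003 TPM in GDNF cultures 6, 12, 17 and 22. Of the GDNF cultures, only number 17 lay below the highest control, and number 6 was far above all others. The means were 3.20 ± 0.985 and 7.75 ± 4.18 TPM (SD, n = 4 each; exact permutation test, two-sided, p = 0.0571, where 4 against 4 cultures cannot give less than 0.0286). In edgeR's quasi-likelihood test the log2 fold change was 0.92 ± 0.37 (SE) with a 95% interval of 0.086 to 1.76, an unadjusted p of 0.0338 and a Benjamini-Hochberg adjusted p of 0.199, which ranged from 0.155 to 0.469 over the alternatives. In a bulk sample, fewer cells that express a gene and less RNA per cell cannot be told apart. Measured against the mean of the other 6 factors above 1 TPM in the same culture, *Lhx1* stood at -1.44 ± 0.62 in the control cultures and at -1.04 ± 0.28 in the GDNF cultures (log2 ratio of CPM, SD, n = 4 each; exact permutation test, two-sided, p = 0.286).

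*Pax2*, a paired box gene at the head of the duct programme, showed a similar pattern at a lower level. It was at 1.69, 2.88, 1.01 and 3.09 TPM in the control cultures and at 7.42, 3.502, 2.66 and 4.39 TPM in the GDNF cultures, in the order of culture number used above. As for *Lhx1*, culture 6 was far above the rest and only culture 17 of the GDNF group overlapped with the controls. The group means were 2.17 ± 0.990 and 4.49 ± 2.07 TPM (SD, n = 4 each; exact permutation test, two-sided, p = 0.0857), and the log2 fold change was 0.69 ± 0.41 (edgeR's quasi-likelihood test, Benjamini-Hochberg adjusted p = 0.338).

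*Pax8*, the paralog of *Pax2* that stays on along the tubule, was at 61.9, 46.8, 30.5 and 93.9 TPM in the control cultures and at 109.7, 65.2, 71.7 and 71.1 TPM in the GDNF cultures. Control culture 21 lay above 3 of the 4 GDNF cultures. With means of 58.3 ± 27.0 and 79.4 ± 20.4 TPM (SD, n = 4 each), the difference was within the spread (exact permutation test, two-sided, p = 0.257), and on the CPM scale the log2 fold change was 0.048 ± 0.34 (edgeR's quasi-likelihood test, adjusted p = 0.946). Its 95% interval, -0.70 to 0.80, leaves room for changes of either sign.

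*Emx2*, a homeobox gene of the ureteric bud, was at 6.94, 9.69, 3.98 and 9.26 TPM in the control cultures and at 17.4, 11.1, 5.99 and 10.2 TPM in the GDNF cultures. Again culture 6 was the highest, culture 14 the lowest, and culture 17 the one GDNF culture inside the control range. The means of 7.47 ± 2.62 and 11.2 ± 4.73 TPM (SD, n = 4 each) did not differ beyond the spread (exact permutation test, two-sided, p = 0.229), nor did the log2 fold change of 0.20 ± 0.37 (edgeR's quasi-likelihood test, adjusted p = 0.779).

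Among the segment factors above 1 TPM, *Tfcp2l1* and *Pou3f3* varied most between cultures, through 1 culture in which both were low. *Tfcp2l1*, a grainyhead-related factor of the collecting duct, was at 4.18, 5.32, 0.662 and 5.39 TPM in the control cultures and at 9.08, 7.83, 4.71 and 5.49 TPM in the GDNF cultures. *Pou3f3*, a POU domain factor of the loop of Henle and distal tubule, was at 4.34, 5.12, 0.655 and 4.69 TPM in the control cultures and at 10.7, 7.22, 3.58 and 5.77 TPM in the GDNF cultures. Control culture 14 was far below the other 7 cultures for both genes. The log2 CPM of *Pou3f3* spanned 3.80 and that of *Tfcp2l1* 3.56 over the 8 cultures, against a median span of 1.19 over all genes tested. Without control culture 14, the spans were 1.68 for *Pou3f3* and 1.04 for *Tfcp2l1*, against a median of 1.12. The group means were 3.89 ± 2.22 and 6.78 ± 2.03 TPM for *Tfcp2l1* (SD, n = 4 each; exact permutation test, two-sided, p = 0.114). For *Pou3f3* they were 3.70 ± 2.06 and 6.82 ± 3.00 TPM (SD, n = 4 each; exact permutation test, two-sided, p = 0.171). The log2 fold changes of 0.40 ± 0.53 and 0.47 ± 0.57 were both smaller than their standard errors (edgeR's quasi-likelihood test, adjusted p = 0.681 and 0.650).

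Although *Tfcp2l1* spanned 11.8-fold and *Pou3f3* 14.1-fold in CPM, their ratio varied little. The log2 ratio of *Tfcp2l1* to *Pou3f3* CPM was 1.54, 1.65, 1.61 and 1.80 in the control cultures and 1.36, 1.71, 1.99 and 1.53 in the GDNF cultures, with an SD of 0.19 over the 8 cultures. This was the smallest SD among the 21 pairs of the 7 factors above 1 TPM, the next being 0.34 for *Pax2* and *Lhx1* and the largest 1.13 for *Pou3f3* and *Irx3*. The ratio in control culture 14 was within the range of the other cultures, as the plot of *Pou3f3* against *Tfcp2l1* shows. Without control culture 14 the SD was 0.21, and the smallest of the 21 was then 0.13, for *Emx2* and *Pou3f3*. The values of a pair share the depth and composition of each culture, so the ratio is given as a description.

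**Figure D2:**
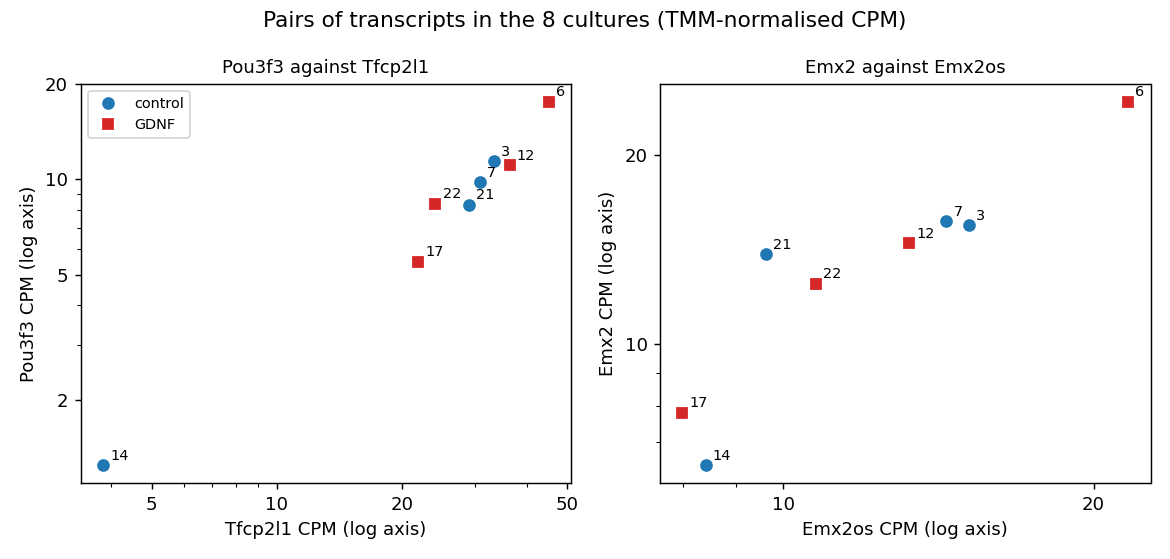
CPM (TMM-normalised, log axes) of *Pou3f3* against *Tfcp2l1* (left) and of *Emx2* against the divergent transcript *Emx2os* (right) in the 8 cultures, numbered, with controls as blue circles and GDNF cultures as red squares. Control culture 14, at 3.82 CPM of *Tfcp2l1* and 1.25 CPM of *Pou3f3*, lies far below the other 7 cultures, and GDNF culture 6 lies at the top of both plots.

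Because *Pou3f3* and *Tfcp2l1* were both low in control culture 14 and kept a similar ratio there, their RefSeq promoter windows of 250 bases are shown. The windows are on GRCm38.p6, 5′ to 3′ on the strand of the gene (chr1:42695518-42695767, plus strand, for *Pou3f3*, and chr1:118627695-118627944, plus strand, for *Tfcp2l1*). Capitals mark CCAAT in the first and TATAAA in the second:
Pou3f3: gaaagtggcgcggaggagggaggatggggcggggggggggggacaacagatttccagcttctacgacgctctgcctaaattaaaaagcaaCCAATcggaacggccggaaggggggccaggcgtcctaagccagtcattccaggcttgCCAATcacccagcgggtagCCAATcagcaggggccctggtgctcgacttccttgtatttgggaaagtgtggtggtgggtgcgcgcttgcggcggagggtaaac
Tfcp2l1: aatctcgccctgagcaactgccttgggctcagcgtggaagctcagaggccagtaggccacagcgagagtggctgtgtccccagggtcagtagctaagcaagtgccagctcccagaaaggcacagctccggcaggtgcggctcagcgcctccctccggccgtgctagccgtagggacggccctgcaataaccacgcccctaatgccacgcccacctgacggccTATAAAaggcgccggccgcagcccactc
The *Pou3f3* window held 3 CCAAT motifs, whose first bases lie 160, 103 and 84 bases before the start, and no TATAAA. The *Tfcp2l1* window held TATAAA once, 28 bases before the start used for the window, and no CCAAT. The gene itself is listed from base 118627923, so the last bases of this window lie past that start. Searched on both strands, CCAAT occurred in 33.8% of 32851 RefSeq promoter windows of the same length and TATAAA in 12.4%. The GC content was 60.8% and 65.2%, against a median of 52.4% over all windows. Neither motif was shared by the pair.

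*Irx3* and *Foxi1* did not follow the other factors, and *Irx1* did so only in part, with its highest value in GDNF culture 6 in TPM but in control culture 3 in CPM. *Irx3*, a homeobox gene of intermediate nephron segments, was at 10.8, 8.18, 8.84 and 7.33 TPM in the control cultures and at 10.9, 11.5, 8.97 and 10.4 TPM in the GDNF cultures. It was the steadiest of the 9 genes and was not low in control culture 14. Its means were 8.78 ± 1.46 and 10.5 ± 1.08 TPM (SD, n = 4 each; exact permutation test, two-sided, p = 0.114), but in CPM the sign was the opposite, with a log2 fold change of -0.20 ± 0.24 (edgeR's quasi-likelihood test, adjusted p = 0.647). The counts of *Irx3* come from 2 listed transcripts with the same values, so each read is held 2 times in their sum.

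*Irx1*, a paralog of *Irx3*, rested on 6 to 53 counts per culture, with 0.231 ± 0.136 TPM in the control and 0.333 ± 0.189 TPM in the GDNF cultures (SD, n = 4 each; exact permutation test, two-sided, p = 0.400). *Foxi1*, the factor that specifies intercalated cells, had 2, 47, 11 and 0 counts in the control cultures and 10, 25, 0 and 5 counts in the GDNF cultures. The highest value was 0.334 TPM in control culture 7, and the counts of 0 in control culture 21 and GDNF culture 17 allow up to 0.0262 and 0.0261 TPM (3 counts, for counting error only). No difference in *Foxi1* was detectable at this depth, with an interval of the log2 fold change from -3.47 to 2.26. Of 16 genes of intercalated cells, 6 had a mean under 0.1 TPM, against 29.8% of all listed genes, among them *Slc4a1* and *Slc26a4*, the anion exchangers that define type A and type B cells, and *Atp6v1b1*, a proton pump subunit. Others were well above this level, such as *Car2*, a carbonic anhydrase, at 55.1 TPM in the control and 67.9 TPM in the GDNF cultures. The sum over the list was 29.6 TPM (control culture 14) to 108 TPM (GDNF culture 6), and most of it was *Car2*, at 22.3 and 96.8 TPM in these cultures. Of the 10 tested, 1 was higher at an unadjusted p of 0.05 (*Kit*, log2 fold change 0.95 ± 0.42), against 9.25% of all genes. Likewise 1 was lower (*Atp6v0d2*, another proton pump subunit, -0.80 ± 0.32), against 12.9% of all genes, and none passed the adjusted p.

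Over all 9 genes, none passed an adjusted p of 0.05 in the quasi-likelihood test of edgeR (Benjamini-Hochberg), as none of the 16557 genes did (0%). At an unadjusted p of 0.05, 1 of the 9 was called, *Lhx1*, against 22.1% of all genes tested (9.25% higher and 12.9% lower after GDNF). DESeq2, the tool of the study, called 1346 of 9170 genes with an adjusted p (14.7%) and gave *Lhx1* an unadjusted p of 0.0175 but no adjusted one, because its independent filter set aside *Pax2*, *Lhx1*, *Pou3f3*, *Irx1* and *Foxi1*. The other 4 genes had an adjusted p of 0.568 or more in DESeq2, and limma-voom called no gene. The mean was higher in the GDNF cultures for 8 of 9 genes in TPM and 7 of 9 in CPM, against 78.8% and 52.5% of all genes, and none of the 9 had groups without overlap on either scale, where 20.6% of all genes did in TPM and 6.99% in CPM with GDNF higher. The median log2 fold change was 0.20 over the 9 genes and 0.033 over all genes tested.

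**Figure D3:**
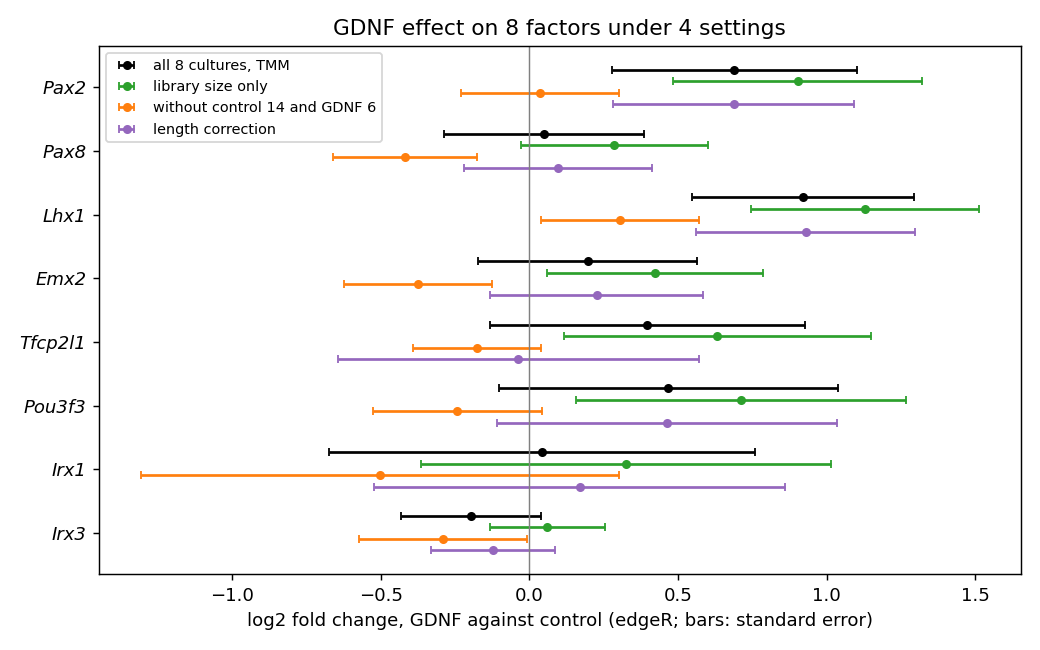
Log2 fold change, GDNF against control (horizontal axis; points, edgeR estimates; bars, standard errors), of 8 of the 9 genes with all cultures and TMM, with library size only, without control culture 14 and GDNF culture 6, and with a correction for transcript length. *Foxi1* is left out for its few counts. *Lhx1* lies above 0 in all 4 settings, and *Pax8*, *Emx2*, *Tfcp2l1*, *Pou3f3* and *Irx1* fall below 0 when these cultures are left out.

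A pair of cultures held the extremes of most of the factors. In CPM, 6 of the 9 genes, *Pax2*, *Pax8*, *Lhx1*, *Emx2*, *Tfcp2l1* and *Pou3f3*, had their highest value in GDNF culture 6 and their lowest in control culture 14, against 4.77% of all genes. In TPM this held for 5 genes, against 5.15%, with *Lhx1* lowest in control culture 3 by a small margin. This pair was left out in an alternative that was added once the data had been seen. Since they were picked as the ends of these same genes, leaving them out was bound to shrink the differences, and the values are a description. The log2 fold change of *Lhx1* was then 0.31 ± 0.27 (edgeR's quasi-likelihood test, adjusted p = 0.469) and that of *Pax2* 0.035 ± 0.27 (adjusted p = 0.944). The remaining values were -0.42 for *Pax8*, -0.37 for *Emx2*, -0.18 for *Tfcp2l1*, -0.24 for *Pou3f3* and -0.50 for *Irx1*. In TPM without the pair, the mean remained higher in the GDNF cultures for 8 of 9 genes, against 77.5% of all genes, with differences of 1.05 for *Tfcp2l1*, 0.809 for *Pou3f3* and 0.471 TPM for *Emx2*. In CPM it was higher for 2 of 9, against 51% of all genes. Without GDNF culture 6 alone, *Lhx1* was at 0.43 ± 0.27 (edgeR's quasi-likelihood test, adjusted p = 0.355). In TPM, leaving out GDNF culture 17 separated the groups for *Pax2*, *Lhx1*, *Emx2*, *Tfcp2l1* and *Pou3f3* (exact permutation test, two-sided, p = 0.0286, the smallest that 4 against 3 cultures can give), as it did for 25.4% of all genes with GDNF higher. For each of these factors, culture 17 was the only GDNF culture below the highest control. Leaving it out was thus bound to give this p, and the result is a description.

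In the summed epithelial and stromal markers, control culture 14 was an extreme of all 8 cultures, and GDNF culture 6 of its own group only. The summed level of 11 epithelial genes was 569 to 4110 TPM in the control and 1212 to 1843 TPM in the GDNF cultures. Control culture 14 was the lowest of all, and GDNF culture 6 was the highest of its group but below control cultures 3 and 21. Of these 11, 2 had a log2 fold change above 0 in edgeR, against 52.5% of all genes, and the median was -0.69. At an unadjusted p of 0.05 in edgeR's quasi-likelihood test, 2 were lower, against 12.9% of all genes, and none passed the adjusted p. Summed stromal genes (11 of 11 detected) ranged from 210 to 1704 TPM in the control and from 264 to 1367 TPM in the GDNF cultures, with control culture 14 the highest of all and GDNF culture 6 the lowest of its group. Podocyte genes (6 of 6 detected) ranged from 20.9 to 118.6 and from 26.7 to 120.2 TPM, with control culture 14 at the top of the controls and GDNF culture 6 at the bottom of its group. Endothelial genes summed to 14.2 to 40.2 TPM in the control and 28.3 to 55.8 TPM in the GDNF cultures, and immune genes to at most 9.47 TPM in any culture. *Cdh16*, a cadherin of tubule epithelium, was at 63.8 CPM in control culture 14, between 220 and 331 CPM in the other controls, at 557 CPM in GDNF culture 6 and between 131 and 258 CPM in the other GDNF cultures. Not all epithelial genes were highest in GDNF culture 6, where *Cdh1* was at 76.5, *Epcam* at 220 and *Krt8* at 285 CPM. *Cdh1* reached 147 and *Krt8* 1315 CPM in control culture 21, and *Epcam* 317 CPM in control culture 3. Relative to *Cdh16*, most factors above 1 TPM were not low in control culture 14. The log2 ratios of *Lhx1* (-3.93), *Pax8* (-0.39), *Emx2* (-3.31) and *Irx3* (-1.30) there were the highest of the 8 cultures. That of *Pax2* (-5.07) was below GDNF cultures 17 and 22 only, while the ratios of *Tfcp2l1* (-4.06) and *Pou3f3* (-5.67) remained the lowest. The stromal sum was 210 TPM in control culture 3 and 264 TPM in GDNF culture 6. *Lhx1* was at 2.31 and 13.8 TPM and *Pax2* at 1.69 and 7.42 TPM in these cultures, in the same order. They also differed in the epithelial sum, at 2852 and 1843 TPM, and in *Cdh16*, at 331 and 557 CPM. Each value is of a single culture. The part of cell composition in the differences between groups was not tested.

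**Figure D4:**
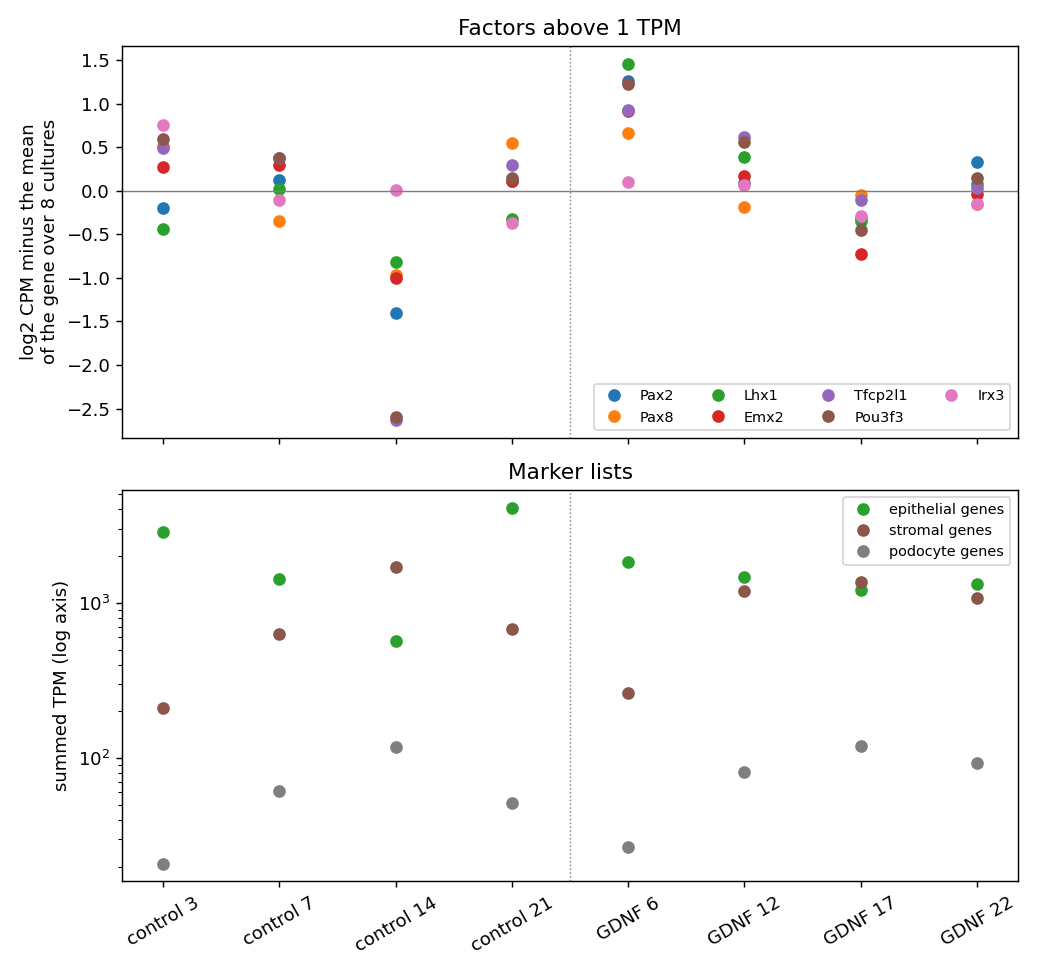
Upper panel, log2 CPM of the 7 factors above 1 TPM minus the mean of each gene over the 8 cultures; lower panel, summed TPM (log axis) of epithelial, stromal and podocyte marker lists in the same cultures, with control cultures left of the dotted line and GDNF cultures right of it. Factors other than *Irx3* lie lowest in control culture 14 and highest in GDNF culture 6, and control culture 14 has the lowest epithelial and the highest stromal sum.

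Between cultures with *Xist* above Y-linked RNA and those with the reverse, 3 of the 9 factors did not overlap in CPM, with the *Xist* cultures higher, against 3.31% of all genes. *Tfcp2l1* was at 30.7 to 45.1 CPM in the *Xist* and 3.82 to 28.9 CPM in the Y-linked cultures, *Pou3f3* at 9.78 to 17.6 and 1.25 to 8.36 CPM, and *Emx2* at 14.5 to 24.3 and 6.44 to 13.9 CPM. In TPM none of the 9 was separated in this way, against 1.84% of all genes. With the kind of culture as a covariate, *Lhx1* had a log2 fold change of 0.82 ± 0.30 (edgeR's quasi-likelihood test, adjusted p = 0.155). Its difference between GDNF and control means was 7.07 TPM among the *Xist* cultures and 2.03 TPM among the Y-linked cultures, with 2 cultures in each cell.

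Transcripts that start beside the factors on the other strand were read along with them, since the library kit does not mark strand and the counting is not stated to use it. *Emx2os* of GENCODE starts 55 bases from the RefSeq start of *Emx2*, which lies outside it. The 264 exon bases shared by the pair belong to GENCODE models, and whether the counted RefSeq transcripts share bases was not tested. The log2 ratio of *Emx2* to *Emx2os* had an SD of 0.26 over the cultures. Without strand, reads within any shared bases cannot be told apart. *Lhx1os* starts 126 bases from *Lhx1* and shares no exon bases with it. Its own log2 fold change was 0.26 ± 0.47 (edgeR's quasi-likelihood test, adjusted p = 0.774), and the log2 ratio of *Lhx1* to *Lhx1os* was -0.93, -0.13, 0.026 and 0.43 in the control cultures and 0.29, 0.53, 0.52 and 0.62 in the GDNF cultures. The ratios overlapped through control culture 21, so the difference between the pair was not set apart from the spread. *Irx3os* and *Gm13415*, which overlap exons of *Irx3* and *Pax8* in GENCODE, were not analysed here. The stretch between the *Lhx1* and *Lhx1os* starts is shown in capitals within the 250 bases before *Lhx1* (RefSeq, GRCm38.p6, chr11:84525535-84525784, minus strand, 5′ to 3′):
Lhx1: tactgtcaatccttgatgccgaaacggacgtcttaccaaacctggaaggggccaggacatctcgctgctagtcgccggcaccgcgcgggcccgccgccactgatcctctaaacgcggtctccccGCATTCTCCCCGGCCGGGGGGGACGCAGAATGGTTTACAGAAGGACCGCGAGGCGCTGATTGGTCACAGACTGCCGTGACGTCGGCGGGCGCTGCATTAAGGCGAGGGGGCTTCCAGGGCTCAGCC
This window had a GC content of 64.8% and 26 CpG, against a median of 6 over all windows, and 1 CCAAT motif on the other strand.

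Near *Pou3f3*, the noncoding *Pantr1*, which starts 926 bases away on the other strand, had a log2 fold change of -0.038 ± 0.65, and *Pantr2*, further downstream, 1.09 ± 0.66 (edgeR's quasi-likelihood test, adjusted p = 0.981 and 0.347). Of 21 paralogs of the 9 genes, 10 were tested and 1 was higher at an unadjusted p of 0.05, against 9.25% of all genes, *Ubp1*, a relative of *Tfcp2l1* (log2 fold change 0.46 ± 0.17, adjusted p = 0.173 in edgeR's quasi-likelihood test). *Irx2*, an Iroquois paralog, had a log2 fold change of 0.63 ± 0.39 (adjusted p = 0.359).

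Among 14 partners of the factors in the nephric duct, 13 had a log2 fold change above 0, against 52.5% of all genes, and the median was 0.36, against 0.033. At an unadjusted p of 0.05, 1 of the 14 was called, against 22.1% of all genes, and none passed the adjusted p in edgeR's quasi-likelihood test. The gene called was *Gfra1*, the co-receptor for GDNF, at 0.57 ± 0.21 (adjusted p = 0.183), while *Ret*, its signalling partner, was at 0.42 ± 0.35 and *Gata3*, a target of *Pax2* and *Pax8* in the duct, at 0.41 ± 0.34. In CPM, *Gfra1* was highest in GDNF culture 17, at 178, and its highest control was culture 14, at 136. *Wnt11* and *Sox9* were near 0, at 0.054 ± 0.15 and 0.047 ± 0.46. The largest estimates were 1.14 ± 0.71 for *Wnt9b*, a Wnt ligand of the duct, and -0.93 ± 0.58 for *Wnt7b*, a Wnt ligand of the collecting duct and the 1 gene below 0. Of 13 regulators of intermediate mesoderm and nephron formation, 10 were above 0 with a median of 0.36 and 1 passed the unadjusted p, against the same shares of 52.5% and 22.1% of all genes. This was *Sall1*, a zinc finger factor of nephron progenitors, at 0.74 ± 0.20 (adjusted p = 0.167 in edgeR's quasi-likelihood test and 0.0295 in DESeq2). None of 9 principal cell genes, 14 loop and distal tubule genes or 7 proximal tubule genes tested passed the unadjusted p, where 22.1% of all genes did. The summed level of the 10 principal cell genes was 26.9, 33.8, 7.93 and 13.4 TPM in the control cultures and 92.6, 39.8, 13.3 and 16.7 TPM in the GDNF cultures. As for 6 of the factors in CPM, culture 14 was the lowest and culture 6 the highest, and 69.3 of the 92.6 TPM there came from *Fxyd4*, a regulator of the sodium pump.

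The genes whose profile over the 8 cultures was most like that of each factor were found by the root mean square difference of centred log2 CPM, among 11454 genes with at least 5 CPM. For *Lhx1* these were *Sema4a*, a semaphorin, at 0.176 and *Fgfr4*, a fibroblast growth factor receptor, at 0.194, and for *Pax2* they were *Sox11* at 0.158 and *Sel1l3* at 0.166. For *Pax8* they were *Copg2* at 0.101 and *Cobll1* at 0.149, and for *Emx2* *B4galt6* at 0.128 and *Tjp3*, a tight junction protein, at 0.136. *Tfcp2l1* and *Pou3f3* shared *9030625G05Rik* as the first outside gene, at 0.249 and 0.225, but each was closer to the other, at 0.179. Their second genes were *Sema4d* at 0.287 and *Tfap2b*, an AP-2 factor of the distal nephron, at 0.250. These distances include control culture 14, in which *Tfcp2l1* and *Pou3f3* were both low. Without it, the SD of their log2 ratio was 0.21, against 0.13 for *Emx2* and *Pou3f3*. *Irx3* was most like *2810002D19Rik* at 0.118 and *Ntpcr* at 0.129, and its closest factor, *Pax8*, was at 0.542, further than the median gene at 0.419.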

How the data were processed

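The authors sequenced libraries made with the SMART-Seq v4 kit as paired-end reads of 75 bp and mapped them to mm10 (GRCm38). STAR, featureCounts and DESeq2 are named in the submitters' processing notes. Their versions and the strand setting are not given in the sources used here. The deposited counts are whole numbers for 33068 RefSeq transcripts. The deposited FPKM values served only to obtain transcript lengths, and the authors scaled the deposited TPM to a fixed total in each culture.

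Gene sums of the counts were compared without pairing by the quasi-likelihood test of edgeR 4.0.16 under R 4.3.3, after filterByExpr and TMM, with Benjamini-Hochberg adjustment over the 16557 genes kept. TPM was read from the transcript with most counts on average and compared by exact permutation over 70 assignments. Standard errors are the absolute log2 fold change divided by the square root of F. Intervals use the total degrees of freedom of the test, 9.97, which add edgeR's prior degrees of freedom to the residual ones. Alternatives were DESeq2 1.42.0, limma-voom (limma 3.58.1), other normalizations, filters, scales and covariates, and leaving out cultures. The edgeR and DESeq2 steps were tested on simulated data. Named genes are the 9 factors, their neighbours and paralogs, the 2 genes most like each factor, and list genes with the smallest unadjusted p. Other genes named, such as *Ret*, *Gata3*, *Wnt9b*, *Wnt7b*, *Wnt11*, *Sox9*, *Fxyd4*, *Cdh16* and most intercalated cell markers, were chosen after their values were seen. The factors and lists were chosen with earlier results of these data known. Coordinates are from RefSeq and exon overlaps from GENCODE M21, both on GRCm38. Promoter windows were found for 8 of the 9 genes, not for *Irx1*. Python 3.11.15 with SciPy 1.17.1 was used for permutations and figures.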

Additional observations from a re-analysis of the deposited data

Results flagged for a closer look

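In groups of 4, a value was marked when its gap to the nearest other value, relative to the range of the group, exceeded Dixon's 95% critical value. Of 36 checks (9 genes, both groups, TPM and CPM), 3 were marked, where chance marks about 1 in 20. *Pax8* in GDNF culture 6 was marked on both scales, at 109.7 TPM and 151 CPM, far above the other GDNF cultures at 65.2 to 71.7 TPM and 83.8 to 92.2 CPM. *Tfcp2l1* in control culture 14 was marked at 3.82 CPM, with the other control cultures between 28.9 and 33.2 CPM. The cause was not tested.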

How the results depend on the processing

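No paired analysis was possible because the groups share no culture number. No gene passed the adjusted p in edgeR or limma-voom under any setting run, whereas DESeq2 called 1346. The number of the 9 factors at an unadjusted p of 0.05, 1 with all cultures, was 0 with limma-voom and 0 without control culture 14 and GDNF culture 6. With each culture left out in turn it was 0 to 1, the number over all genes 2192 to 4104, and the number of factors separated in TPM (exact permutation) 0 to 5, where the 5 came without GDNF culture 17. For these 5, culture 17 was the only GDNF culture below the highest control, so their separation was bound to follow. The log2 fold change of *Lhx1* was above 0 in all fits, at 0.31 to 1.13, and so was that of *Pax2*, at 0.035 to 0.90. Signs turned for *Irx3* with library size only (0.061) and for *Tfcp2l1* with a correction for transcript length (-0.038). With cultures left out in turn, signs turned within the ranges of *Pax8* (-0.19 to 0.23), *Emx2* (-0.15 to 0.41), *Irx1* (-0.26 to 0.72), *Irx3* (-0.37 to 0.086) and *Foxi1* (-1.49 to 1.07). Without both control 14 and GDNF 6, *Pax8* (-0.42), *Emx2* (-0.37), *Tfcp2l1* (-0.18), *Pou3f3* (-0.24) and *Irx1* (-0.50) turned, and *Foxi1* was not tested, and this pair was picked from the values of these genes. In place of the TPM difference, *Irx3* in CPM was -3.58, and *Foxi1* was 0.00423 on log2(TPM + 0.1) and -0.0600 to 0.0569 TPM with cultures left out in turn. The cause was not tested. *Irx1* and *Foxi1* had at most 53 counts per culture, which limits the precision of their levels.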
